A study of Homo sapiens with 8 samples.

Results

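The Hippo pathway genes described here are the upstream kinases STK3 and STK4, the adaptors SAV1 and NF2, the downstream kinases LATS1 and LATS2, the coactivators YAP1 and WWTR1, and the DNA-binding partners TEAD1 and TEAD3. Members were all rows of the deposited m6A peak table that carry one of these 10 symbols. They came to 28 peaks on 9 genes, of 22626 peaks on 12009 genes in all. No peak carries the TEAD3 symbol, so this gene has no values below. The genes were put together with earlier results of the same table known, and the STK4 fold was among them, so the values of the arms' comparison below are a description.

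The series holds 8 libraries from HCT116, a human colorectal cancer cell line, in 4 groups of 2. Control cells (shNC, given as WT in the labels) and cells with stable knockdown of ALKBH5 (shALKBH5) each gave immunoprecipitated (IP) and input libraries. ALKBH5 is an enzyme that takes the methyl group of N6-methyladenosine (m6A) off RNA. Poly(A) RNA of both arms was fragmented, part was kept as input and the rest was pulled down with an antibody against m6A. The titles mark the knockdown cells as AL1, and the labels do not say whether replicates were separate cultures or whether the stable cells were 1 clone. A peak is a stretch of exons where the IP exceeded the input. Of 9 markers of colorectal epithelium 5 had a peak (EPCAM, CDH1, KRT8, KRT18 and CDX2), against 2 of 12 markers of fibroblasts, leukocytes and endothelium (COL1A1 and CD68), and a peak shows methylated RNA, not its level. No values per library were analysed, so nothing below has a replicate error, the depth is unknown and the knockdown of ALKBH5 was not checked.

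In the Hippo pathway, STK4 and STK3 (also known as MST1 and MST2), held by the scaffold SAV1, phosphorylate and activate LATS1 and LATS2, and NF2 brings LATS kinases to the membrane. Active LATS kinases phosphorylate YAP1 and WWTR1 (also known as TAZ), which are then kept in the cytoplasm and degraded. Unphosphorylated YAP1 and WWTR1 enter the nucleus and switch on growth genes through TEAD factors, and in the intestine this output is known for its part in regeneration and tumour growth. m6A is set on many mRNAs, most densely in long internal exons and around the stop codon, and influences their decay and translation.

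The files used here give letters for 1 stretch of a member's peak, and it is shown for that reason alone. The first STK4 peak began 27 bases after the annotated start of STK4, and its first 23 bases lie inside the RefSeq promoter window (GRCh38.p14, chr20:44966539-44966561, plus strand). They read, 5′ to 3′, as follows.
STK4: gagcgggtctgggcggctgctgg
No letters are in capitals because the core of the common m6A motif, GGAC, was searched on the transcribed strand and does not occur in this stretch. GGAC occurs in the last 23 bases of 9.04% of the 35116 RefSeq promoter windows, read the same way. This stretch is a part of the peak's 151 exonic bases, and the letters of the rest were not used here.

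2 of the 28 peaks passed a false discovery rate (FDR) of 0.05 in the authors' deposited comparison of the arms, on STK4 and LATS1, both with a positive log2 fold, as 5.74% of all peaks did. They make 7.14% of the members' peaks, beside 8.23% of all peaks in the table, so the share is near that of the table. At an FDR of 0.1 the count was 4, with SAV1 and TEAD1 added, beside 11.2% of all peaks. With only peaks at a peak log10 p of -5 or lower the count was 1, and the STK4 call ended. This limit took out 7 member peaks, 1 of them called, and 7258 of all peaks, 93 of them called. Under it the called share fell in the members and rose over all peaks. Of the 9 genes, 2 had a called peak. Among all genes with a peak the share was 13.7%, and among genes with 3 or 4 peaks, as 8 of these 9 have, it was 21.1%. No member peak with a negative fold passed, where 2.49% of all peaks did. At the authors' deposited p under 0.05 without adjustment 4 member peaks with a positive and 2 with a negative fold passed, beside 19.9% of all peaks in both directions. The sources used here do not give the arm in the numerator, so a sign says nothing on whether the knockdown was the higher or the lower arm. They do not say either whether the folds take transcript abundance into account, so m6A and transcript level cannot be told apart.

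**Figure D1:**
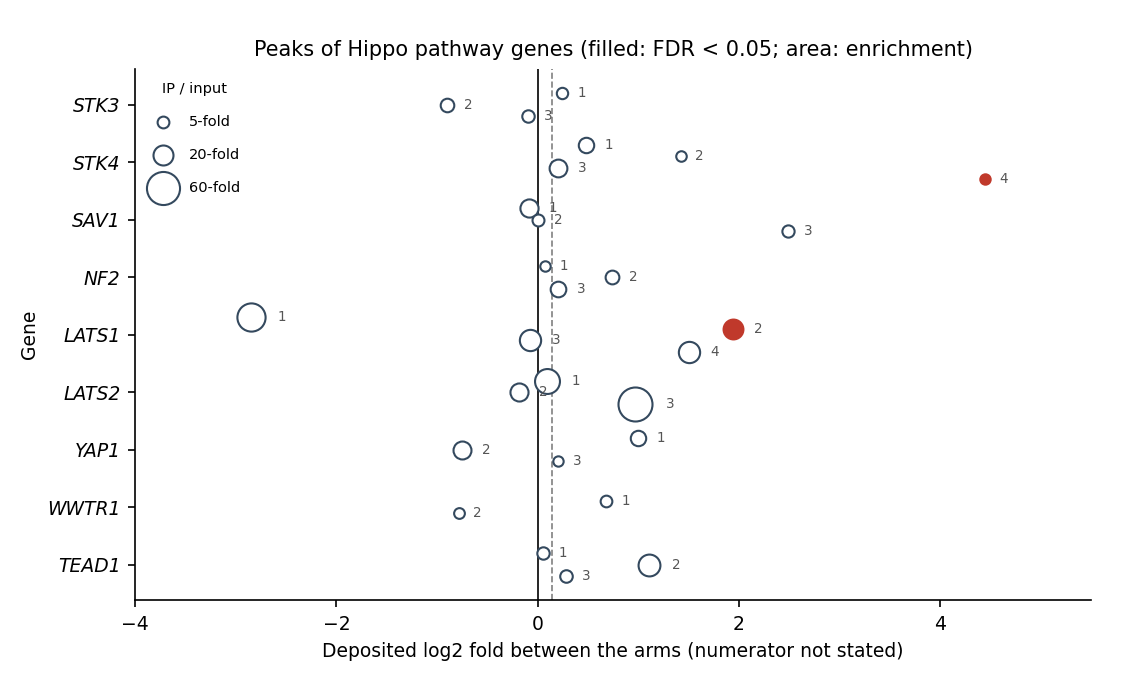
Deposited log2 fold between the arms (x axis) of each of the 28 peaks by gene (y axis), numbered from 5′ to 3′, with the symbol's area growing with enrichment of IP over input. Filled symbols passed an FDR of 0.05 (STK4 peak 4 at 4.44 and LATS1 peak 2 at 1.94), and the dashed line is the median of all peaks, 0.14.

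**Figure D2:**
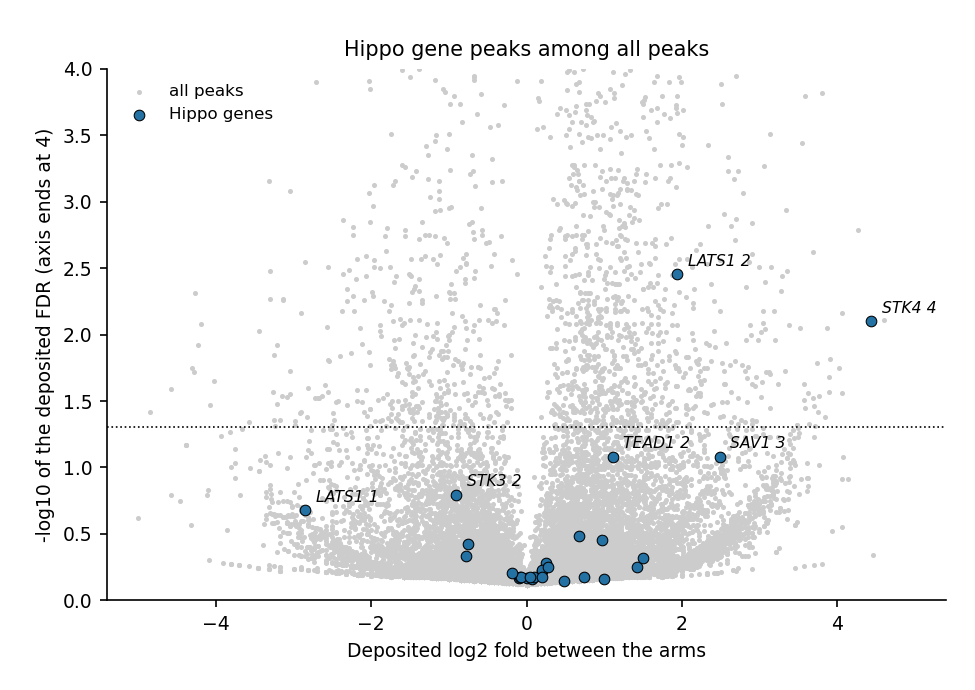
Deposited log2 fold (x axis) against -log10 of the deposited FDR (y axis, ending at 4) for all peaks in grey and the members in blue, with the dotted line at an FDR of 0.05. STK4 peak 4 and LATS1 peak 2 lie above the line, TEAD1 peak 2 and SAV1 peak 3 lie just under it, and the other 24 lie lower.

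STK4 carried 4 peaks, and the last of them had the largest fold of all members. That peak, chr20:45075920-45076129 (GRCh38), is 1 exon block of 210 bases and ends 3892 bases before the annotated 3′ end of STK4. The authors' deposited table gives it a log2 fold of 4.44, a ratio of 21.7 between the arms, with an FDR of 0.0079. Of all folds in the table it ranks number 4 from the top. It is a weak peak: its enrichment of 3.19-fold in the authors' deposited table is higher than that of 12.1% of all peaks, and its peak log10 p is -3.62. Of the 7258 peaks with a peak log10 p above -5, 1.28% were called, and of the 20 among them with an absolute log2 fold of at least 4, 6 were called.

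The other STK4 peaks did not pass. The third, chr20:45000485-45075620, has 5 exon blocks with 1079 exonic bases and is the strong STK4 peak, with a peak log10 p of -61.1 and 15.2-fold enrichment in the authors' deposited table. It ends 299 bases before the called peak begins, yet its log2 fold in the authors' deposited table is 0.20 (FDR 0.60). For 3484 pairs of peaks on 1 gene that lie at most 500 bases apart, the median difference is 0.99. The STK4 difference of 4.24 is larger than 98.9% of them. This rank only describes the pair, since the STK4 fold was known when the genes were put together. The pairs were not matched for peak strength. Other member pairs this close rank at 42.5% (STK3), 49.1% (YAP1), 80.4% (LATS1) and 88.4% (SAV1). The first and second STK4 peaks, of 151 exonic bases each, stand in the authors' deposited table at 0.48 (FDR 0.71) and 1.42 (FDR 0.56). Their peak log10 p of -3.09 and -2.73 in the authors' deposited table puts both among the weakest of the members.

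STK3, the paralogue of STK4, had 3 peaks and no call. From 5′ to 3′ its log2 folds in the authors' deposited table are 0.25 (FDR 0.52), -0.91 (FDR 0.16) and -0.10 (FDR 0.68). The middle peak, chr8:98526699-98553348, passes only the unadjusted p, at 0.023 in the authors' deposited table. Enrichment was modest on all 3 STK3 peaks, between 4.43- and 7.62-fold in the authors' deposited table, although the first had a peak log10 p of -43.0 over 5 exon blocks. None of them lies near an end of the annotated gene: the nearest is 111861 bases from the 3′ end of STK3. These distances are to the ends of the annotated gene, and the ends of single transcripts were not used. Whether the paralogues differ in where their peaks lie on the transcript was therefore not tested. Their folds were not tested against each other either.

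SAV1, the scaffold that binds STK3 and STK4, had its largest fold on the peak nearest its 3′ end. That peak, chr14:50635175-50640779, ends 1595 bases before the annotated 3′ end of SAV1, and the authors' deposited table gives it a log2 fold of 2.49 with an FDR of 0.083, past 0.1 but not 0.05. The peak that ends 89 bases upstream of it has a log2 fold of 0.01 in the authors' deposited table, and the first SAV1 peak has -0.09. That first peak is the strong one, with 16-fold enrichment and a peak log10 p of -88.8 in the authors' deposited table, against 5.63-fold and -7.29 for the peak with the large fold. SAV1 and STK4 share this layout of a strong peak with a fold near 0 and a weaker peak with a large fold farther 3′. The layout was picked out after the folds were seen, and the SAV1 peak was not called. How often it occurs among all genes was not counted.

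NF2, the membrane-associated adaptor also known as merlin, had the narrowest spread of folds among the members. Its 3 peaks stand in the authors' deposited table at log2 folds of 0.07, 0.74 and 0.20, with FDRs of 0.69, 0.67 and 0.59. The spread of 0.67 is larger than that of 12.9% of the 1413 genes with 3 peaks, whose median spread is 1.62. The third NF2 peak, chr22:29684149-29695306, ends 3294 bases before the annotated 3′ end and is the strong one, with 11.1-fold enrichment and a peak log10 p of -91.2 in the authors' deposited table. The first 2 peaks of NF2 have 121 exonic bases each and a peak log10 p of -3.62 and -4.61 in the authors' deposited table.

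LATS1 had the widest spread of folds. Its called peak, chr6:149683316-149684571, is 1 exon block of 1256 bases, the longest member peak and longer than 97.6% of all peaks. The authors' deposited table gives it a log2 fold of 1.94, a ratio of 3.84, with an FDR of 0.0035 and 19.7-fold enrichment. Of the 1063 peaks with at least 1000 exonic bases 14% were called. The other members of that length, STK4 peak 3 and LATS2 peak 2, were not called.

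The first LATS1 peak, chr6:149701813-149702232, has the largest negative fold of the members, -2.85 in the authors' deposited table, with an unadjusted p of 0.038 and an FDR of 0.21. It is 42.8-fold enriched in the authors' deposited table, which is more than 97.4% of all peaks. For the 2 peaks 3′ of the called one the authors' deposited table lists log2 folds of -0.08 (FDR 0.67) and 1.5 (FDR 0.48). From -2.85 to 1.94 the LATS1 peaks span 4.79 on the log2 scale, wider than 97.5% of the 606 genes with 4 peaks, whose median span is 2.01. STK4, at 4.24, is at 94.4% among the same genes. Both genes with a called peak also hold uncalled peaks whose folds lie far from it. In each gene the called peak has the highest fold, so the wide span is not separate from the call. The 606 genes were not limited to those with a called peak.

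LATS2, the paralogue of LATS1 and itself a target gene of YAP1 and TEAD, was the most enriched gene of the group and had no call. Its peaks, from 5′ to 3′, have enrichments of 32.8-, 15.8- and 63.6-fold in the authors' deposited table. The last of these, chr13:20974409-20975215, is higher than 99.2% of all peaks and ends 1373 bases before the annotated 3′ end of LATS2. Log2 folds from 5′ to 3′ are 0.09 (FDR 0.67), -0.18 (FDR 0.62) and 0.97 (FDR 0.35) in the authors' deposited table. The first LATS2 peak begins 209 bases from the annotated 5′ end and is among the strong member peaks, with a peak log10 p of -86.9 in the authors' deposited table. All 7 LATS1 and LATS2 peaks were at least 15.8-fold enriched.

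**Figure D3:**
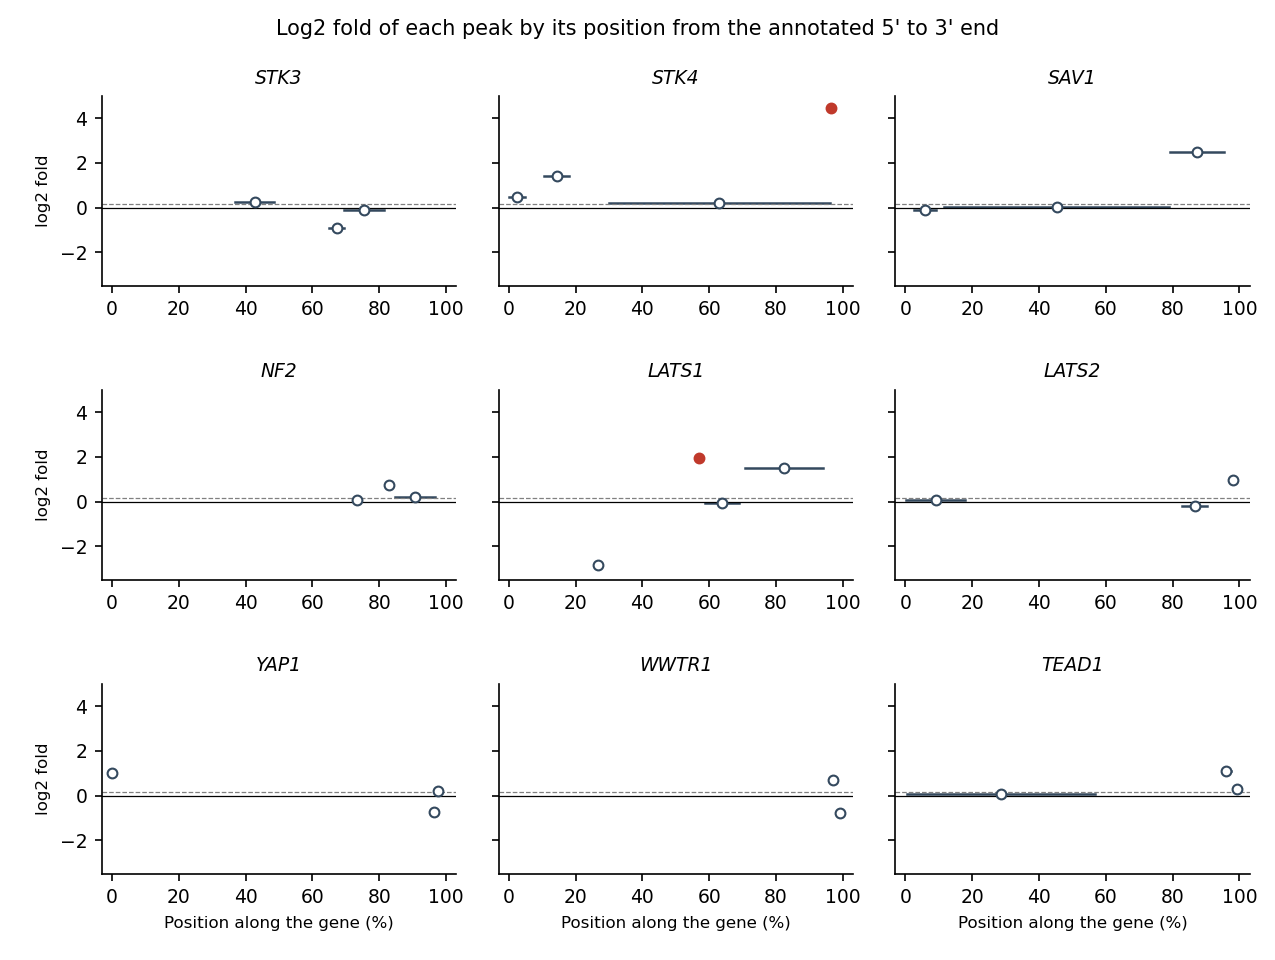
Log2 fold between the arms (y axis) by position along each annotated gene (x axis, percent of its length from the 5′ to the 3′ end), where a bar spans the peak from its first to its last exon block and a circle marks the middle. Filled circles passed an FDR of 0.05. The called STK4 peak sits near the annotated 3′ end and the called LATS1 peak in the inner part of the annotated gene. STK3 has no peak near an end of the annotated gene, and the ends of single transcripts were not used.

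YAP1 had 3 peaks, and none passed. The strong one, chr11:102227476-102230224, ends 3200 bases before the annotated 3′ end, with 15.6-fold enrichment and a peak log10 p of -57.9 in the authors' deposited table. Its log2 fold in the authors' deposited table is -0.75 (FDR 0.38). This peak shares 359 bases, 57.1% of its exonic length, with a peak of an unnamed gene (ENSG00000254422) on the opposite strand, whose log2 fold in the authors' deposited table is -1.04 (FDR 0.48). The sources used here do not state whether the counting used strand, so the assignment of that signal to YAP1 is uncertain. No other member peak overlaps a peak of another gene. The weak peaks beside it, one beginning 60 bases from the annotated start and one near the 3′ end, stand in the authors' deposited table at 1.0 (FDR 0.69) and 0.20 (FDR 0.67).

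WWTR1 had 2 peaks with folds of opposite sign, neither of which passed. In the authors' deposited table the 5′ one, chr3:149520797-149525882, has a log2 fold of 0.68 (FDR 0.33) and the 3′ one, chr3:149518762-149519001, has -0.79 (FDR 0.46). Both are lowly enriched, at 4.88- and 3.66-fold in the authors' deposited table, values that exceed those of 24.4% and 15.8% of all peaks. Both end within 5000 bases of the annotated 3′ end of WWTR1.

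TEAD1, the DNA-binding partner with peaks, came close to the threshold at its second peak. That peak, chr11:12930253-12937724, has 690 exonic bases, 24.5-fold enrichment and a peak log10 p of -89.0 in the authors' deposited table. Its log2 fold is 1.11 with an unadjusted p of 0.0085 and an FDR of 0.083 in the authors' deposited table. The peaks on either side have in the authors' deposited table log2 folds of 0.05 (FDR 0.67) and 0.28 (FDR 0.56), and enrichments of 5.81- and 6.07-fold. Unlike in STK4 and SAV1, the TEAD1 peak with the largest fold is also its strongest.

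**Figure D4:**
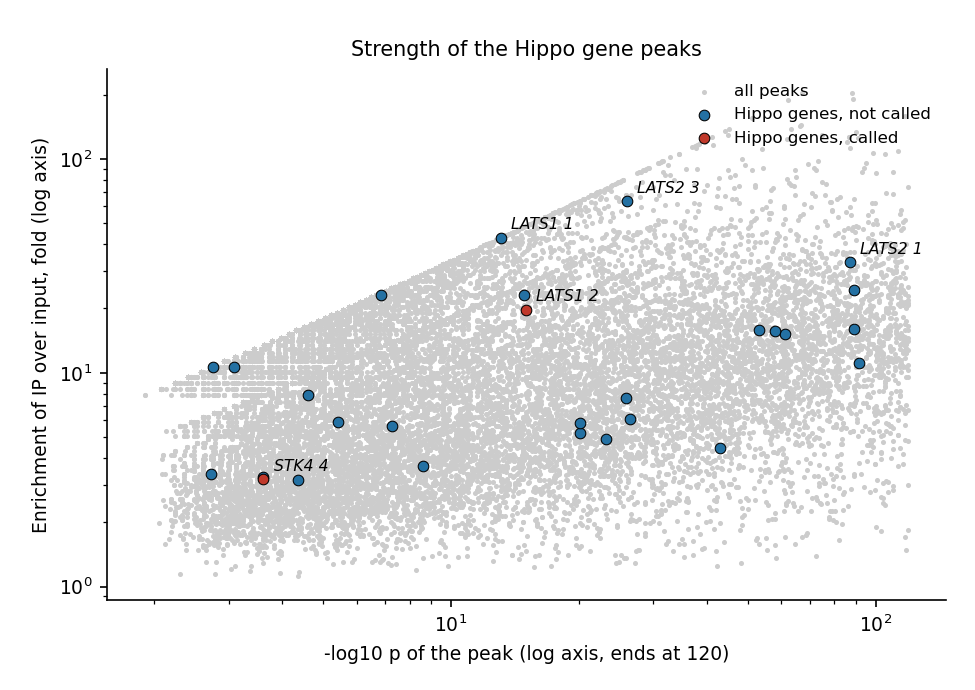
Enrichment of IP over input (y axis, fold, log axis) against -log10 of the peak's own p (x axis, log axis, ending at 120) for all peaks in grey, members not called in blue and members called in red. STK4 peak 4 lies in the lower left at 3.19-fold, LATS1 peak 2 in the upper middle at 19.7-fold, and LATS1 peak 1 and LATS2 peak 3 lie along the upper edge.

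Across the 28 peaks the median log2 fold was 0.20, beside 0.14 over all peaks, and 20 of 28 (71.4%) were positive, beside 55.3% of all peaks. Relative to the median of all peaks 16 of 28 were higher. Folds of both signs occurred on 6 of the 9 genes, and STK4, NF2 and TEAD1 had positive folds only. The median absolute log2 fold was 0.58, beside 0.66. An absolute log2 fold of at least 1 was found for 8 member peaks (28.6%, beside 33.4% of all peaks), of which STK4 peak 4 and LATS1 peak 2 were called. The 6 others, among them LATS1 peak 1 and SAV1 peak 3, were not called. Of all peaks with a fold of that size 14% were called.

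The member peaks were longer than the rest and crossed exon junctions more often. Their median exonic length was 450 bases, beside 300 for all peaks, and 19 of 28 (67.9%) had more than 1 exon block, beside 30.4%. Both called member peaks were single blocks. Their median peak log10 p was -17.6, beside -8.2, while the median enrichment of 9.29-fold was close to the 10.1-fold of all peaks. At least 3 peaks were listed for 8 of the 9 genes, as for 21.3% of all genes with a peak. In 8 genes, all but STK3, the last peak ends within 5000 bases of the annotated 3′ end, and several of these peaks begin farther upstream. The ends of single transcripts were not used, so STK3 stands apart only by the bounds of the annotated gene. The first peak begins within 1000 bases of the 5′ end in STK4, SAV1, LATS2, YAP1 and TEAD1, and apart from that of YAP1 these peaks reach farther into the gene over several exon blocks. These are descriptions of a chosen set and were not tested.

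Other genes of the pathway were taken from a list of 97 grouped by role, of which 73 had 188 peaks. A called peak was found on 17 of the 73 genes, beside 13.7% of all genes with a peak and 21.1% of those with 3 or 4 peaks. Genes were not matched for their number of peaks, nor peaks for their strength. Of the 188 peaks 26 (13.8%) passed an FDR of 0.05, beside 8.23% of all peaks. The fold was positive for 22 of them and negative for 4. FAT1, an atypical cadherin upstream of the pathway, held 6 of them, and without FAT1 the share was 11%. The median log2 fold of the list was 0.26, beside 0.14 over all peaks.

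Kinases and adaptors near the core had 5 called peaks of 37 (13.5%), 2 positive and 3 negative, beside 5.74% positive and 2.49% negative of all peaks. STK38L, a kinase related to LATS1 and LATS2, has 2 peaks in the authors' deposited table, of which 1 was called, at 3.28 (FDR 0.0047), and the other stands at 2.76. MAP4K4, a kinase that acts beside STK3 and STK4 on the LATS kinases, has 3 peaks in the authors' deposited table, of which 1 was called, at -1.96 (FDR 0.00074), and uncalled ones at -0.01 and 1.18. MINK1, of the same family, likewise has 3 peaks in the authors' deposited table, of which 1 was called, at -1.77 (FDR 0.0066), and uncalled ones at 1.16 and 0.60. TAOK2, of the family of kinases that activate STK3 and STK4, has 3 peaks in the authors' deposited table, of which 1 was called, at -3.05 (FDR 0.00083), and uncalled ones at 0.64 and -1.0. On MAP4K4, MINK1 and TAOK2 the called negative peak stood beside at least 1 uncalled peak of positive fold. The FDRs of these positive peaks ran from 0.39 to 0.70, and 55.3% of all peaks had a positive fold. MOB1A and MOB1B, the cofactors of the LATS kinases, had 1 and 2 peaks, none called.

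Polarity and junction genes had 8 called peaks of 53 (15.1%, beside 8.23% of all peaks), all positive and all on FAT1 and the tight junction scaffold TJP1. Of 7 FAT1 peaks the 6 called ones range from 0.59 to 1.19 on the log2 scale in the authors' deposited table, and the uncalled one stands at 0.25. Of 7 TJP1 peaks the 2 called ones stand at 0.78 and 1.0 in the authors' deposited table, and the uncalled ones range from 0.51 to 1.87. All peaks of both genes thus had positive folds. In STRIPAK, the phosphatase complex that acts on STK3 and STK4, 2 of 19 peaks (10.5%) were called. The catalytic subunit gene PPP2CA has 2 peaks in the authors' deposited table, of which 1 was called, at 1.18 (FDR 0.011), while its stronger peak stands at 0.28 (FDR 0.17). SIKE1 has 3 peaks in the authors' deposited table, of which 1 was called, at 1.51 (FDR 0.028), and uncalled ones at -0.35 and -1.05. The SIKE1 call ended with p doubled (FDR 0.055), and its peak log10 p of -4.96 misses the limit of -5.

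Genes for turnover and cytoplasmic retention of YAP1 had 10 called of 43 peaks (23.3%, beside 8.23% of all peaks), 9 of them positive. Peaks were not matched for strength: the median peak log10 p of this role was -13.8, beside -8.2 over all peaks. Of the 10 called peaks 2 had an absolute log2 fold of at least 1. The 14-3-3 genes YWHAG and YWHAZ, whose products hold phosphorylated YAP1 in the cytoplasm, had 1 called peak of 2 and 2 of 3. In the authors' deposited table the YWHAG peak stands at 2.06 and the YWHAZ peaks at 0.80 and 0.53, and uncalled ones at 0.20 and -0.65. CSNK1D, a casein kinase that marks YAP1 for degradation, has 10 peaks in the authors' deposited table, of which 1 was called, at 0.86. The single peak of SFN, another 14-3-3 gene, was called too, at -0.29 (FDR 6.3e-14) in the authors' deposited table. It is the only called peak of this role with a negative fold.

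None of 6 peaks on 5 nuclear partners passed in the authors' deposited comparison, with 1 at an unadjusted p under 0.05, and so few peaks cannot be set against the 8.23% of all peaks. TEAD4, a further TEAD factor, stands at 0.38 (FDR 0.63) in the authors' deposited table. Of 30 peaks on 14 common target genes of YAP1 and TEAD 1 (3.33%) passed. LATS2, AMOTL2, PTPN14 and WWC1 are common targets as well but were counted elsewhere, and none of them had a called peak. In the authors' deposited table the called target peak lies on CCN1, at 1.52 (FDR 0.002), while the stronger CCN1 peak stands at 0.36 (FDR 0.33). For CCN2, its close relative and a widely used readout of YAP1 activity, the authors' deposited table lists 1 peak, at 0.03 (FDR 0.66). Differences between roles were not tested.

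**Figure D5:**
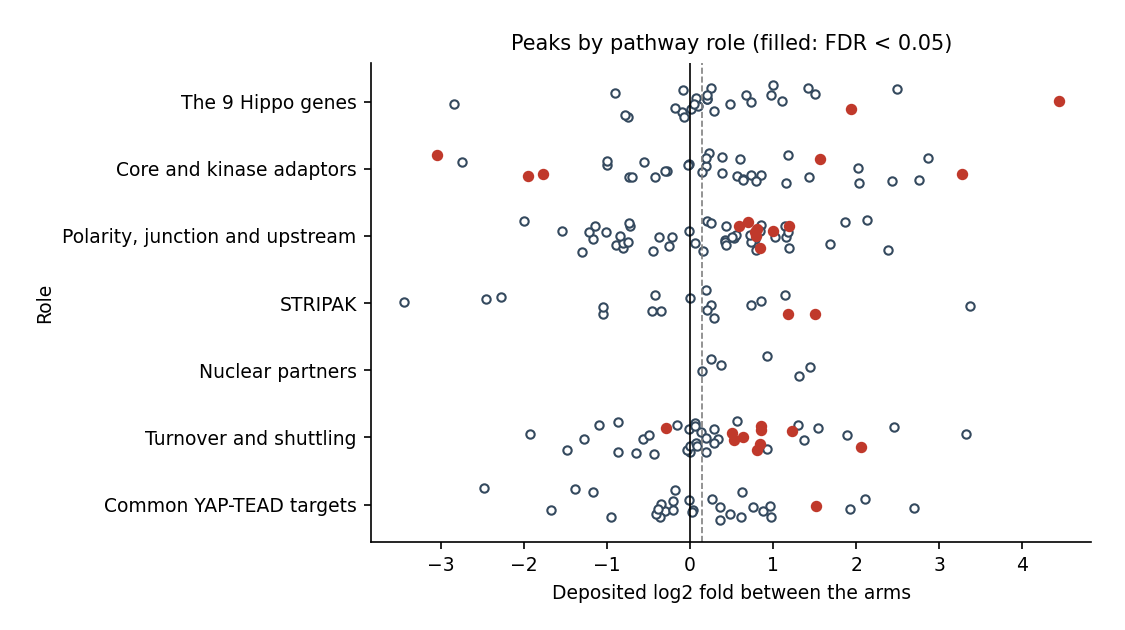
Deposited log2 fold between the arms (x axis) of every peak of the 9 Hippo genes and of the other pathway genes by role (y axis), 1 circle per peak with a small vertical offset for legibility. Filled circles passed an FDR of 0.05: 2 of 28 in the Hippo genes, and in the other roles between 0 (nuclear partners) and 10 (turnover and shuttling).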

How the data were processed

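The single file used is the peak list of the whole series, made by the authors from IP and input libraries of both arms. HOMER 4.9.1, BWA 0.7.12 and GRCh38 stand in the submitters' processing notes without a stated use, and the peak caller is not given in the sources used. Per the file headers, the list holds for each peak its p-value, the log10 of its p and FDR (deposited as a score with no lower limit), its fold enrichment (a linear ratio, taken as that of IP to input), and the log2 fold between the arms with the log10 of its p and FDR. The number of exon blocks is deposited as well.

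A peak was called at a deposited FDR under 0.05. The deposited FDR was recomputed from the deposited p with the Benjamini-Hochberg method, and for 22469 of 22626 peaks the log10 values differ by at most 0.02. The kind of p is not given, and it never exceeds 0.773, so p doubled and adjusted again was an alternative. Whether replicate spread entered it is not given. No test of arms across libraries was made, since values per library were not analysed here. Percentiles are shares of all peaks with a lower value. All 9 gene symbols matched the RefSeq table (GRCh38.p14), and all 28 peaks lie within the annotated gene. Coordinates are 1-based. Adjustment and merging of overlapping peaks were tested on simulated data (Python 3.11.15, pandas 2.3.3). The members and lists were chosen with earlier results of these data known. Named genes are all members and, of the other pathway genes, up to 4 called per role by smallest FDR. MOB1A, MOB1B, TEAD4 and CCN2 were named after their values were seen.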

Additional observations from a re-analysis of the deposited data

How the results depend on the processing

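Calls on the Hippo genes depended on the threshold and on peak strength. With an FDR of 0.1 there were 4 called peaks, all 4 positive, the added ones being SAV1 peak 3 and TEAD1 peak 2. With only peaks at a log10 p of -5 or lower, 1 called peak was left, positive, on LATS1, since the STK4 peak stands at -3.62. With an FDR of 0.01 and with p doubled (FDR 0.016 for STK4 and 0.0072 for LATS1), the count was 2. It was also 2 with overlapping peaks merged either way and with the median fold subtracted, but these settings do not probe the calls. Calls use the deposited FDR alone, so subtracting the median could not change their count. No called member peak overlaps another peak, so merging had none of them to join. Of the other pathway genes, 7 peaks with a negative fold passed an FDR of 0.1, against 4, and the total ranged from 21 to 29 over the alternatives. Subtracting the median fold turned 4 uncalled member folds negative (SAV1 peak 2, NF2 peak 1, LATS2 peak 1 and TEAD1 peak 1) and 0 called ones. No paired analysis was possible because the file gives the authors' comparison and no values per library, and leaving out a replicate was not run for the same reason.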

Other observations

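Some enrichment values recurred across the table. The first peaks of STK4 and YAP1, both within 60 bases of an annotated start, are listed at 10.7-fold, as are 444 peaks in all. LATS1 peaks 3 and 4 are listed at 23.1-fold, as are 126 peaks in all. The called LATS1 peak 2 has such a value too, 19.7-fold, found for 146 peaks in all. So do STK4 peak 3 at 15.2-fold (270 peaks in all) and LATS2 peak 2 at 15.8-fold (272 peaks in all). Among peaks of like p (within 0.25 on the log10 scale), LATS1 peak 1 stands at 42.8-fold where the highest is 43.3-fold, LATS1 peak 4 at 23.1-fold where it is 24.2-fold, and LATS2 peak 3 at 63.6-fold where it is 67.5-fold. In this order they exceed 92.5%, 75.4% and 95.9% of the peaks of like p. LATS1 peak 4 is thus less extreme than its distance from the highest makes it seem. LATS1 peak 1 is also the member with the largest negative fold. Read counts behind these values were not analysed here.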
